A study of Rattus norvegicus with 18 samples.

Results

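De novo lipogenesis was followed here through 10 genes, which were taken from the 32623 genes of each file by their symbols. They are the enzymes Acly, Acaca, Acacb, Fasn and Elovl6, the NADPH-producing malic enzyme Me1, the regulators Srebf1, Mlxipl and Thrsp, and the lipid droplet protein gene Pnpla3. Each symbol occurred in 1 row of each file, and all 10 passed the filter on low counts. Livers came from male Wistar rats, with 6 control, 6 NASH and 6 NASH-CH rats and 1 library per rat. Control rats ate standard chow for 12 weeks. NASH rats inhaled CCl4, a hepatotoxin, with phenobarbital in their water for 6 weeks and for the next 4 weeks ate a diet rich in fat and cholesterol (HFCD). The NASH-CH group, with cirrhosis, had 8 weeks of CCl4 and phenobarbital followed by 16 weeks of CCl4, phenobarbital and HFCD together, 24 weeks in all. Diet, toxin, phenobarbital and duration changed together, so their parts cannot be told apart. All tissue was whole liver, in which fewer hepatocytes and less RNA per hepatocyte cannot be told apart either.

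De novo lipogenesis makes fatty acids from carbohydrate. In the hepatocyte cytosol ATP citrate lyase (Acly) splits citrate into acetyl-CoA, acetyl-CoA carboxylase (Acaca, and the mitochondrial isoform Acacb) makes malonyl-CoA, and fatty acid synthase (Fasn) builds palmitate with NADPH, part of it from malic enzyme. Insulin and sterol metabolites act on these genes through SREBP-1c, a product of Srebf1, and glucose acts through ChREBP, the product of Mlxipl. Unsaturated fatty acids and feeding state are known to change their transcription.

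In NASH rats all 10 genes had a mean level below that of control rats, and 3 of them passed the test, Acly, Acaca and Me1. Acly and Me1 encode the enzymes that supply acetyl-CoA and NADPH, and Acaca encodes the enzyme of malonyl-CoA. That is 30.0% of the members, beside 3.12% of the 12904 genes tested (1.54% in the lower direction), with an adjusted p under 0.05 in limma-voom. The genes were chosen with results of these data known, so these shares are a description. In NASH-CH rats 2 of 10 were called, Me1 and Elovl6, both lower, beside 17.0% of all genes, near the share of the members, and 8.60% in the lower direction. Between NASH-CH and NASH rats limma-voom called 0 of 10, beside 4.20% of all genes, although all 10 log2 fold changes were above 0. Without adjustment 2 of them, Acaca and Acacb, had a p under 0.05, and edgeR called 0 and DESeq2 2 of the 10. The median log2 fold change of the 10 genes was -1.35 in NASH and -0.76 in NASH-CH against control and 0.92 in NASH-CH against NASH, and over all genes tested it was 0.01 in each of the 3 comparisons. Both models were set against the same 6 control rats. Levels are given throughout as CPM, read counts scaled to library depth and by TMM, which allows rats to be compared for a gene but not genes with each other, since gene length is not taken into account.

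The start-site sequences of 5 of these genes are shown because they belong to the genes that passed the test or changed most and to 2 of their regulators. They are RefSeq windows of the GRCr8 build, another build than that of the counts, from 250 bases before to 50 after a start site, and 7 of the 10 members had such a window. Srebf1 had 2, of which the downstream one, that of SREBP-1c, is given. Capitals mark CCAAT (the letters bound by NF-Y, a partner of SREBP) and GGGCGG (the letters of a GC box), searched on both strands.
Acly (chr10:85963582-85963881, minus strand): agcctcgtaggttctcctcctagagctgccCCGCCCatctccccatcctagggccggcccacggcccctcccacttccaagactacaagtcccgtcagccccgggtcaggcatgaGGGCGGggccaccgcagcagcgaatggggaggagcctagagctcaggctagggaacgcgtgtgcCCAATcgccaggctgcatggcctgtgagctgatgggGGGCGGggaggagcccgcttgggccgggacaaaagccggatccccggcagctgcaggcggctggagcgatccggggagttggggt
Me1 (chr8:96540195-96540494, minus strand): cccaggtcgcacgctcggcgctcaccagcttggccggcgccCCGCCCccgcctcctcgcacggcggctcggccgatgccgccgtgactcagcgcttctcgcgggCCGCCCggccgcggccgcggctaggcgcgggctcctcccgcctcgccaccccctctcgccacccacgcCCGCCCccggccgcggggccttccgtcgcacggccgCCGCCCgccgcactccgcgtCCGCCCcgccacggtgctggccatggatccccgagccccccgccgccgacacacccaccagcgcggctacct
Srebf1 (chr10:45518961-45519260, minus strand): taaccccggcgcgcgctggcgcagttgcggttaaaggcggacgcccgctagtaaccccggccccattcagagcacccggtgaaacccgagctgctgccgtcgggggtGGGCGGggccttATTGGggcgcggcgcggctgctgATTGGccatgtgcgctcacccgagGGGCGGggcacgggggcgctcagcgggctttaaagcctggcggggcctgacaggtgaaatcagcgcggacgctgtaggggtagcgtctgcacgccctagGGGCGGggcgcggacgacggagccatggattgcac
Thrsp (chr1:161138915-161139214, minus strand): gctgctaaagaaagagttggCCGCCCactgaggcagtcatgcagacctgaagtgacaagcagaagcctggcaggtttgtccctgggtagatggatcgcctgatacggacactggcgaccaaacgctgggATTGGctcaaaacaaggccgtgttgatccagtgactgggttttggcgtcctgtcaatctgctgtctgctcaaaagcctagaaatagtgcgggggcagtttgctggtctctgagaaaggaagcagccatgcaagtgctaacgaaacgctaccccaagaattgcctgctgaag
Pnpla3 (chr7:117173278-117173577, plus strand): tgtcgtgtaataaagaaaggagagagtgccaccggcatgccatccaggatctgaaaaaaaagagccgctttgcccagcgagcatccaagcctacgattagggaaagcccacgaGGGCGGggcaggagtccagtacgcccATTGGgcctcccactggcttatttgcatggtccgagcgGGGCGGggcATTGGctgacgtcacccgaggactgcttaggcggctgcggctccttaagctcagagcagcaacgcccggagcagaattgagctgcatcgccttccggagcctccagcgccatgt
Over the 9 windows of the 7 genes, CCAAT was found in 8, beside 37.5% of 33465 windows of the same length in the whole table, and GGGCGG in 6, beside 33.1%. The 2 windows of Mlxipl overlap and so do not count separately. The Me1 window, with 5 GGGCGG matches, was the only one without CCAAT. An E-box (CACGTG), a sterol element (TCACNCCAC) and a spaced repeat of the liver X receptor (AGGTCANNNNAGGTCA) were matched in 0 of the 9 windows, beside 6.42%, 1.12% and 0.00598% of all windows. No match overlapped another in these windows, and a match or its absence says nothing of binding.

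Srebf1, the gene of SREBP-1a and SREBP-1c (which gene-level counts do not separate), had 104, 327 and 437 CPM as the lowest, median and highest value in control rats. The same values were 52.8, 296 and 361 CPM in NASH and 132, 352 and 466 CPM in NASH-CH rats. Within the NASH group, rats 3 and 4 had 52.8 and 53.2 CPM while the other 4 lay between 266 and 361 CPM, inside the control range. The log2 fold change was -0.67 in NASH (SE 0.50, adjusted p = 0.472, 95% interval -1.72 to 0.39) and 0.21 in NASH-CH (SE 0.54, adjusted p = 0.82, 95% interval -0.92 to 1.34). Neither difference passed, and both intervals include 0. Mlxipl varied less between rats in control and NASH (CV 15.1% and 10.5%) than in NASH-CH (CV 30.2%), with 24.7, 31.8 and 37.2 CPM in control, 22.0, 25.5 and 30.3 CPM in NASH and 19.2, 25.6 and 43.3 CPM in NASH-CH rats. Its log2 fold changes were -0.29 (SE 0.15, adjusted p = 0.28) and -0.18 (SE 0.15, adjusted p = 0.432; 0.07 with scaling by library size only), although all 6 NASH rats lay below the control mean. Thrsp encodes Spot 14, a thyroid hormone- and carbohydrate-responsive protein of lipogenic tissue. It ranged from 243 to 1130 CPM in control (median 934), from 149 to 789 in NASH (median 514) and from 94.9 to 951 in NASH-CH rats (median 634). The log2 fold changes of Thrsp were -0.90 (SE 0.52, adjusted p = 0.328) and -0.67 (SE 0.54, adjusted p = 0.416).

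**Figure D1:**
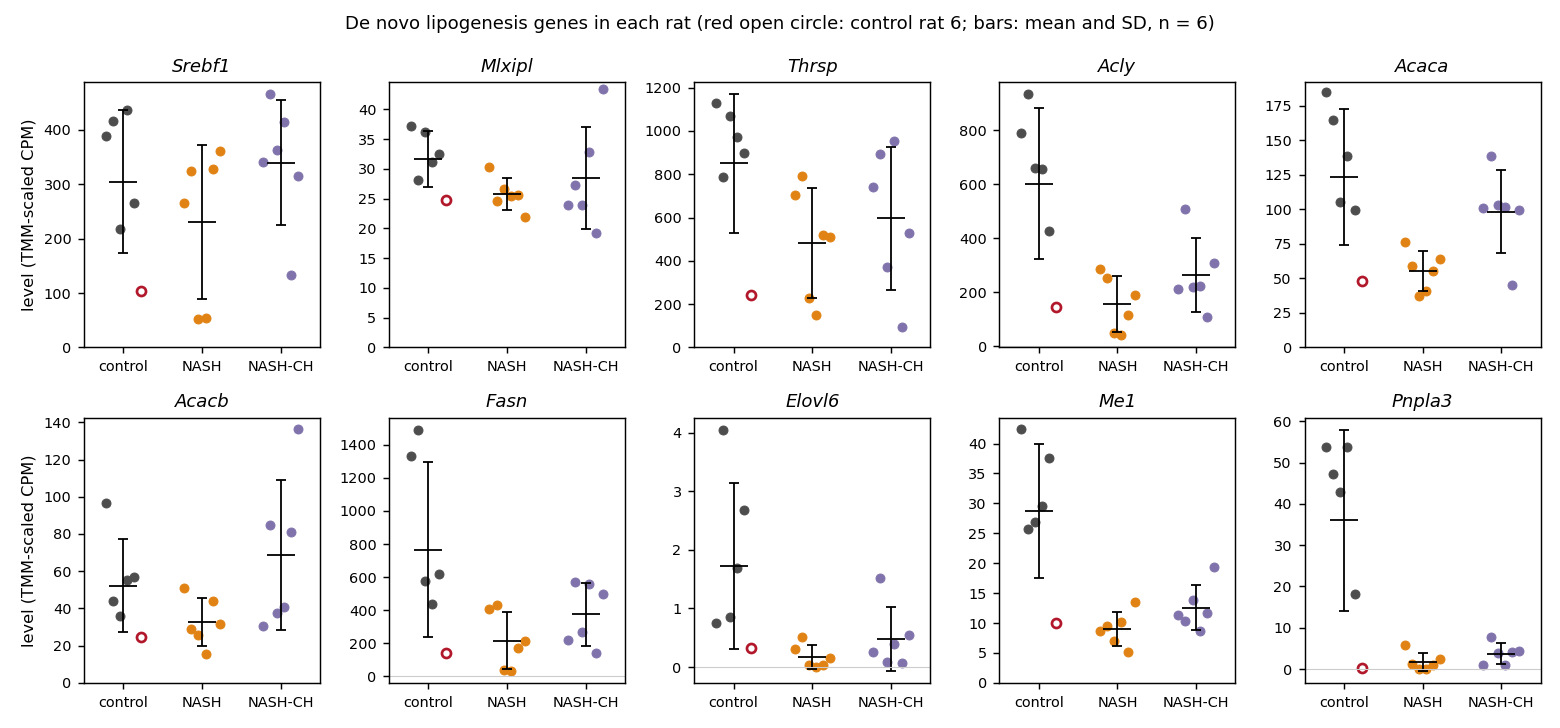
Levels of the 10 lipogenesis genes in TMM-scaled CPM (y axis, from 0 on a scale of its own in each panel) in 6 control, 6 NASH and 6 NASH-CH rats (points), with the mean and SD. Control rat 6, drawn as an open red circle, is the lowest control in all 10 panels, at 148 CPM for Acly and 0.287 CPM for Pnpla3.

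Of the 5 enzymes of palmitate synthesis and elongation, 2 passed in NASH and 1 in NASH-CH. Acly fell in NASH, from 148, 658 and 933 CPM (lowest, median and highest control) to 40.6, 153 and 288 CPM, 4.32-fold lower on the fitted scale (log2 fold change -2.11, SE 0.52, adjusted p = 0.0342). Only control rat 6 lay within the NASH range, and 6 of 6 NASH rats lay below the control mean. NASH-CH rats had 110, 222 and 510 CPM of Acly, and the difference (log2 fold change -1.13, SE 0.56, adjusted p = 0.174) did not pass. Acaca, the cytosolic carboxylase, fell from 48.2, 122 and 184 CPM to 37.5, 56.8 and 76.6 CPM in NASH, 2.13-fold lower (log2 fold change -1.09, SE 0.28, adjusted p = 0.0408). In NASH-CH rats Acaca had 45.1, 101 and 139 CPM, and 5 of the 6 rats lay between 99.3 and 139 CPM, within the control range. Acacb, whose product makes the malonyl-CoA that restrains mitochondrial fatty acid uptake, had 24.6, 49.7 and 96.7 CPM in control, 15.3, 30.3 and 50.8 in NASH and 30.7, 61.0 and 136 in NASH-CH rats. Its log2 fold change was -0.65 in NASH (SE 0.36, adjusted p = 0.3) and 0.30 in NASH-CH (SE 0.38, adjusted p = 0.62).

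Fasn had 141, 598 and 1490 CPM in control, 33.7, 192 and 429 CPM in NASH and 140, 384 and 571 CPM in NASH-CH rats. The log2 fold change of Fasn in NASH was as large as that of Acly, -2.08, but its error was larger (SE 0.67, adjusted p = 0.0897), and it was -0.85 in NASH-CH (SE 0.73, adjusted p = 0.445). Controls themselves spread widely for Fasn, with rats 1 and 2 at 1335 and 1491 CPM and rat 6 at 141 CPM. Elovl6, the elongase that turns palmitate into stearate, was counted at very low depth, with 0 to 105 reads per rat. Its control values were 0.323, 1.28 and 4.05 CPM, those of NASH rats 0, 0.0983 and 0.514 CPM and those of NASH-CH rats 0.0649, 0.327 and 1.52 CPM. NASH rat 4 had 0 reads, which allows up to 0.126 CPM (3 reads, counting error only). Elovl6 fell in NASH-CH (log2 fold change -2.29, SE 0.72, adjusted p = 0.0354), and the larger difference in NASH, -3.54 (SE 1.07, adjusted p = 0.073), did not pass in limma-voom but did with edgeR (adjusted p = 0.0342), DESeq2 (adjusted p = 0.00148) and in 4 other settings. In 5 of 6 NASH rats Elovl6 lay below every control. Its reads numbered 9 to 105 in control, 0 to 12 in NASH and 5 to 70 in NASH-CH rats, and its NASH-CH call was lost with edgeR (adjusted p = 0.0795), with DESeq2 (adjusted p = 0.0548) and in 4 other settings.

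Me1, the cytosolic malic enzyme, fell in both models. It had 10.1, 28.3 and 42.4 CPM in control rats, 5.10, 9.10 and 13.5 CPM in NASH rats and 8.67, 11.5 and 19.4 CPM in NASH-CH rats. The log2 fold change was -1.60 in NASH (SE 0.31, adjusted p = 0.011) and -1.10 in NASH-CH (SE 0.29, adjusted p = 0.014), and all 12 NASH and NASH-CH rats lay below control rats 1 to 5. Control rat 6, at 10.1 CPM, lay inside the range of both models. Pnpla3, whose product acts on lipid droplet triglycerides, spread over a 188-fold range in control and a 140-fold range in NASH rats. Its 6 control values were 53.7, 47.4, 43.0, 53.8, 18.2 and 0.287 CPM for rats 1 to 6. NASH rats had 0.0419, 1.08 and 5.88 CPM and NASH-CH rats 1.04, 4.04 and 7.86 CPM, all below control rats 1 to 5. The fitted log2 fold changes were -4.54 in NASH (SE 1.91, adjusted p = 0.176) and -2.52 in NASH-CH (SE 1.08, adjusted p = 0.12), and neither passed with control rat 6 in the group. Other tests called Pnpla3 with all 18 rats, edgeR at an adjusted p of 0.0124 and 0.0107 and DESeq2 at 0.000276 and 0.00393.

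**Figure D2:**
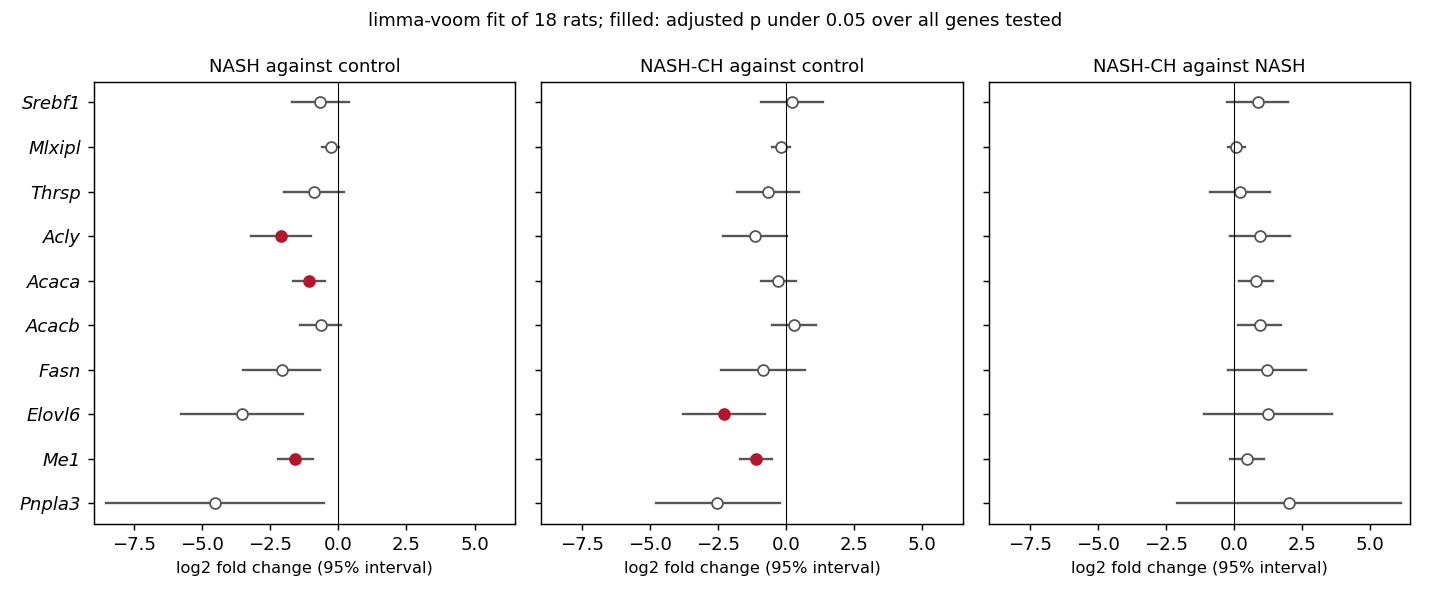
Log2 fold change (x axis) with its 95% interval for the 10 genes in the 3 comparisons, from limma-voom, with filled points where the adjusted p was under 0.05. Acly, Acaca and Me1 are filled in NASH and Elovl6 and Me1 in NASH-CH against control, and the intervals of Pnpla3 are the widest.

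Between the 2 models the differences of the carboxylase genes came nearest to passing. Acaca was higher in NASH-CH than in NASH by 0.81 on the log2 scale (SE 0.29, 95% interval 0.20 to 1.43, adjusted p = 0.138), and an exact permutation test of this gene alone gave p = 0.0216 (two-sided, not adjusted). Acacb was higher by 0.96 (SE 0.38, 95% interval 0.16 to 1.75, adjusted p = 0.184). For Fasn the difference was 1.23 (SE 0.68, 95% interval -0.20 to 2.67, adjusted p = 0.369). For Pnpla3 it was 2.03 (SE 1.96, 95% interval -2.09 to 6.15, adjusted p = 0.644), and both intervals leave room for large differences as well as none. The exact test was also run on members that limma-voom did not call in NASH against control. Its unadjusted p was 0.00433 for Elovl6, 0.0152 for Pnpla3, 0.0281 for Mlxipl and 0.0346 for Fasn. It was 0.11 for Acacb, 0.126 for Thrsp and 0.303 for Srebf1.

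The spread between rats of a group was shared by most of these genes. Control rat 6 was the lowest of the 6 controls for 10 of 10 members, whereas over all genes tested it was the lowest for 19.2%. Its mean correlation with the other control livers over all genes (r = 0.956) was the lowest of the group, just below that of control rat 1 (0.957). In the NASH group rats 3 and 4 were the lowest for 2 and 6 of the 10 members, and over all genes for 14.8% and 21.9%. NASH rat 4 was also the least like its group (mean r = 0.964). In the NASH-CH group rat 5 was the lowest for 7, and this library was also the least like its group (mean r = 0.945) and the lowest for 26.9% of all genes. As deviations from the group means over the 18 rats, Acly, Acaca, Fasn, Srebf1 and Thrsp correlated with each other at Pearson's r between 0.80 and 0.94 and Spearman's rho between 0.58 and 0.90. Without the 2 rats farthest from the median of the first gene of each pair, in the order just given, r lay between 0.63 and 0.89. These 10 correlations share libraries and scaling and are given as a description. Me1, Mlxipl and Acacb had lower median r to the other 9 members, 0.37, 0.38 and 0.43. Within single groups of 6 rats, Pnpla3 had r of 0.92, 0.83 and 0.97 with Acaca, Fasn and Thrsp in control. The same values were 0.98, 0.92 and 0.91 in NASH but 0.01, 0.10 and -0.32 in NASH-CH. With Acly and Acacb, Pnpla3 had 0.36 and 0.71 in NASH-CH.

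**Figure D3:**
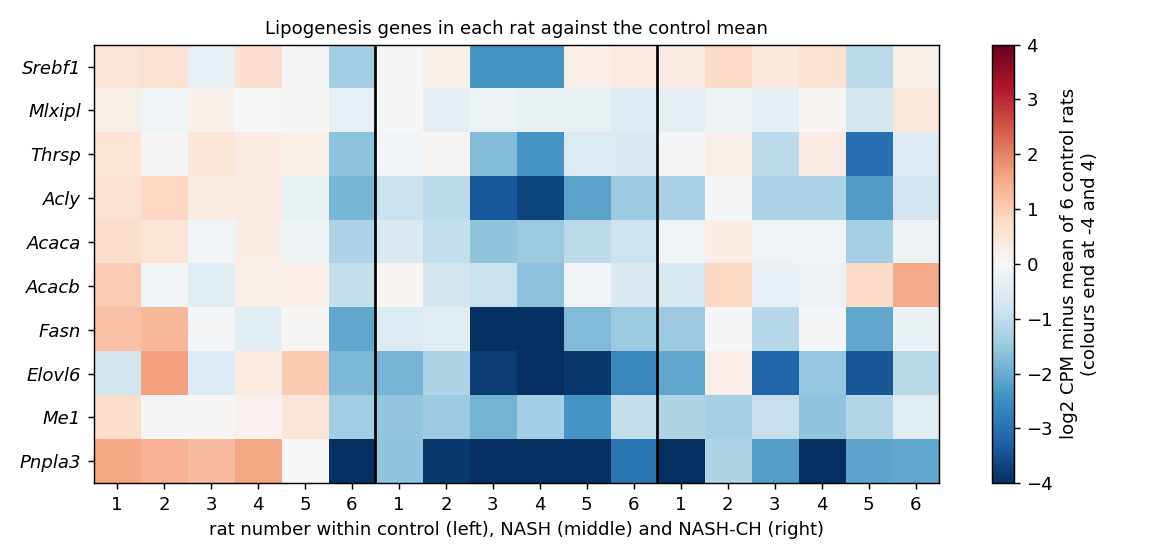
Difference of log2 CPM from the mean of the 6 control rats (colour, ending at -4 and 4) for the 10 genes (rows) in each of the 18 rats (columns, by group). The columns of all NASH rats, of most NASH-CH rats and of control rat 6 are blue for most genes. In the row of Srebf1 control rat 6, NASH rats 3 and 4 and NASH-CH rat 5 are the bluest, and the row of Mlxipl is pale throughout.

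By likeness of these deviations among all tested genes, Fasn was closest to Acly (r = 0.94), Mknk2 (0.90), Ndst2 (0.88), the pentose phosphate gene Tkt (0.88) and Srebf1 (0.87). The genes close to Srebf1 included Derl1 and Dnajc22 (0.90 each), the mitochondrial citrate carrier Slc25a1 (0.89) and Sdsl (0.88). For Mlxipl the closest were a gene known only as AABR07002677.2 (0.89), Clec4m and Ubr2 (0.79 each), Clec4g (0.78) and snoU83B (0.77), none of them a member. These values were chosen as the highest of 12904 and have no test.

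The calls of the 10 genes depended on single rats. Without control rat 6, limma-voom called 6 members in NASH, Acly, Acaca, Fasn, Elovl6, Me1 and Pnpla3, and 3 in NASH-CH, Elovl6, Me1 and Pnpla3. Calls over all genes rose as well, to 7.55% in NASH and 18.5% in NASH-CH. Without any other control rat the share of all genes called in NASH was 0.983 to 4.13%. The log2 fold changes in NASH without control rat 6 were -2.46 for Acly, -2.48 for Fasn (adjusted p = 0.0337) and -5.78 for Pnpla3 (adjusted p = 0.00233). The NASH count dropped to 1 gene, Me1, when any of control rats 1 to 5 or of NASH rats 3, 4 and 5 was left out, and to 2 without NASH rat 2 or without NASH-CH rat 1, 3 or 4. In NASH-CH it dropped to 1 without control rat 2, 4 or 5 or NASH-CH rat 3 or 5. When single rats were left out in turn, Acly lost its NASH call in 8 of 18 fits and Acaca in 12, and Elovl6 lost its NASH-CH call in 5. Me1 kept an adjusted p under 0.05 in all 18 fits, at most 0.0341 in NASH and 0.037 in NASH-CH. With all rats, 0 of 10 members had groups that did not overlap, beside 3.16% of all genes in NASH and 7.11% in NASH-CH, and 0 of 10 between the 2 models, beside 3.46%. Against control rats 1 to 5 alone, 6 members in NASH and 2 in NASH-CH lay wholly below, beside 3.52% and 5.08% of all genes. Control rat 6 was singled out after its values were seen, and nothing in the labels sets it apart.

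**Figure D4:**
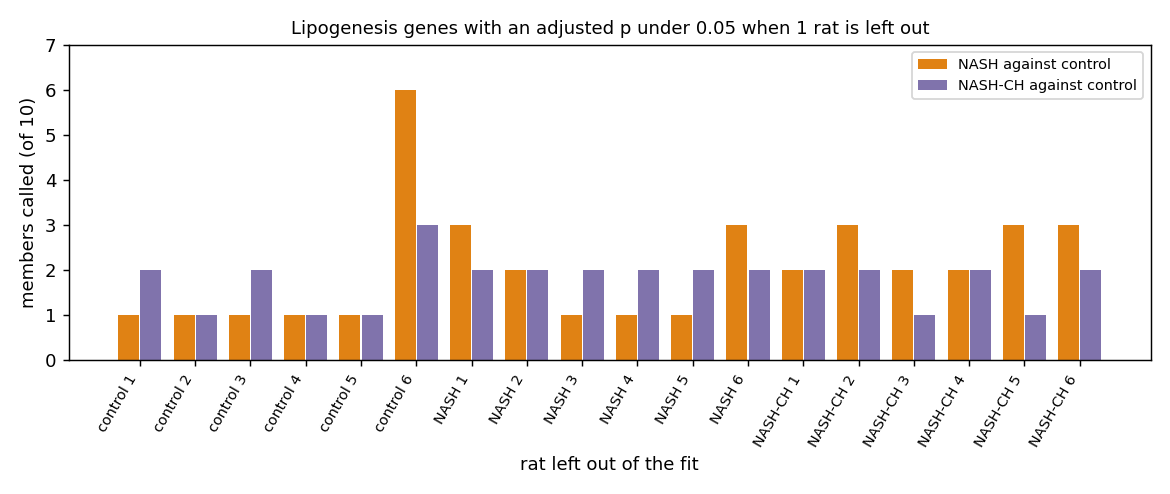
Number of the 10 genes with an adjusted p under 0.05 (y axis, bars from 0) when the rat named on the x axis is left out of the limma-voom fit. Bars of 2 colours side by side give each model against control. The bars reach 6 and 3 without control rat 6 and are at most 3 and 2 without any other rat.

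Ratios within a rat are free of library scaling. The ratio of Acly to Srebf1 counts ran from 1.41 to 3.03 in control rats (median 1.83), from 0.358 to 1.08 in NASH rats (median 0.774) and from 0.54 to 1.09 in NASH-CH rats (median 0.727). Every control rat, rat 6 included at the lower end, lay above every NASH and NASH-CH rat. The ratio of Fasn to Srebf1 had medians of 2.49, 0.678 and 1.14 in the same order, with overlap, since control rats 4 and 6 had 0.998 and 1.35. The ratio of Acaca to Srebf1 lay between 0.317 and 0.485 in control and between 0.246 and 0.341 in NASH-CH rats. It split the NASH rats, with 0.709 and 0.769 in rats 3 and 4 and 0.168 to 0.288 in the others. The ratio of the isoform genes Acaca and Acacb was 1.74 to 3.75 in control rats, 1.26 to 2.68 in NASH and 0.555 to 3.29 in NASH-CH rats, where rats 5 and 6 had 0.555 and 0.728, below every other rat. These 4 ratios were chosen after the levels were seen and were not tested.

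**Figure D5:**
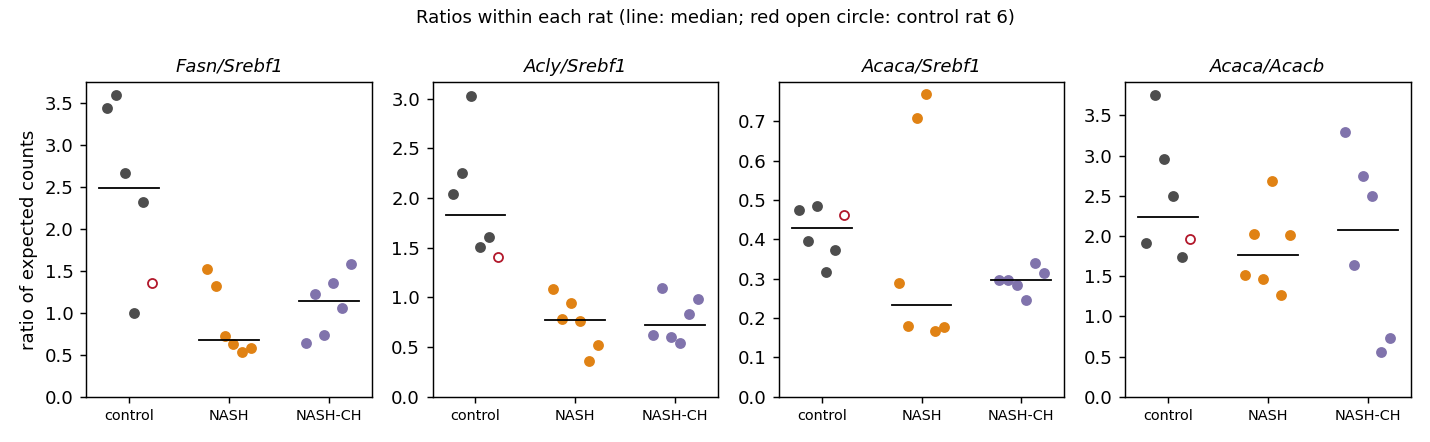
Ratio of expected counts within each rat (y axis, from 0) for 4 pairs of genes, by group, with the group median as a line and control rat 6 as an open red circle. For Acly/Srebf1 the control rats, 1.41 to 3.03, lie above all NASH and NASH-CH rats, and for Acaca/Acacb NASH-CH rats 5 and 6 lie below 1.

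Genes that feed carbon and NADPH into lipogenesis (17 of the 18 listed were found and tested) had a median log2 fold change of -0.51 in NASH and -0.56 in NASH-CH. Counts of this and the next lists stand beside 3.12% of all genes called in NASH and 17.0% in NASH-CH. In NASH 0 rose and 2 fell (11.8%), among them the acetyl-CoA synthetase gene Acss2, -1.81 (SE 0.34, adjusted p = 0.011). In NASH-CH 0 rose and 4 fell (23.5%), among them Acss2, -1.30 (SE 0.35, adjusted p = 0.0169), Gckr, -0.76 (adjusted p = 0.0259), and the malate dehydrogenase gene Mdh1, -0.67 (adjusted p = 0.0355), the last pair with calls lost in 6 and 8 of 18 fits that left out 1 rat and with scaling by library size only (-0.50 and -0.41). Slc25a1, which exports citrate from mitochondria, had -0.56 (adjusted p = 0.0823) in NASH, while the NASH-CH value was -0.28 (adjusted p = 0.322). Control rat 6 was the lowest control for 16 of these 17 genes.

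Of 10 genes that partner ChREBP or respond to glucose, 6 of which are also in the supply list, 0 passed in NASH and 1 fell in NASH-CH (10.0%, beside 8.60% of all genes in that direction). It was Fgf21, a hepatokine gene, at -1.69 (SE 0.55, adjusted p = 0.0418, lost in 9 of 18 fits that left out 1 rat). Liver pyruvate kinase, Pklr, a classical ChREBP target, had -1.67 (SE 0.52, adjusted p = 0.082) in NASH, where edgeR called it (adjusted p = 0.0491). Its NASH-CH value was -0.81 (adjusted p = 0.336). Mlx, the partner of ChREBP, had -0.16 (adjusted p = 0.368) and -0.13 (adjusted p = 0.4). Control rat 6 was the lowest control for 9 of the 10, with 34.9 CPM of Pklr against 179 to 323 in the other controls.

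Downstream of palmitate, 7 of 8 genes of desaturation and activation were tested. The stearoyl-CoA desaturase gene Scd fell in NASH by 4.47 on the log2 scale (SE 0.90, adjusted p = 0.0139), the only 1 of the 7 called there. Scd stood at 2250 to 5720 CPM in control rats 1 to 5 and at 205 CPM in rat 6, at 14.7 to 407 CPM in NASH and at 327 to 1040 CPM in NASH-CH rats, where its log2 fold change of -2.11 (SE 1.00) did not pass (adjusted p = 0.154), although edgeR (adjusted p = 0.0258) and DESeq2 (adjusted p = 0.00539) called it. Scd2 moved the other way in NASH-CH and rose by 1.08 (SE 0.21, adjusted p = 0.00224) against control and by 1.06 (adjusted p = 0.00459) against NASH, while in NASH it had 0.02 (adjusted p = 0.972). Mean Scd2 levels were low, at 7.2, 7.15 and 15.2 CPM in control, NASH and NASH-CH rats. Scd, Scd2 and Scd4 are related in sequence, and reads could be split among them. Of 11 tested genes of triglyceride assembly, 0 rose and 1 fell in NASH (9.09%, beside 3.12% of all genes), and 1 rose and 2 fell in NASH-CH (27.3%, beside 17.0%). The acyltransferase gene Gpam fell in both, -0.95 (SE 0.24, adjusted p = 0.0393, lost in 9 of 18 fits that left out 1 rat) and -1.14 (SE 0.25, adjusted p = 0.0049). Agpat2 fell in NASH-CH, -0.61 (adjusted p = 0.0114), a call lost with scaling by library size only (-0.35, adjusted p = 0.0575). Agpat3 rose, 0.58 (adjusted p = 0.017), and Agpat1 rose against NASH, 0.70 (adjusted p = 0.0104). Dgat2, which completes triglyceride, had 0.02 (adjusted p = 0.98) in NASH, while the NASH-CH value was -0.35 (adjusted p = 0.327).

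A list of 12 genes around SREBP-1c held those that process or activate it, and also Insig1, Insig2 and Mid1ip1. Of these 12, 0 passed in NASH and 1 (8.33%, beside 17.0% of all genes) in NASH-CH. It was the site-1 protease gene Mbtps1, which rose by 0.28 (adjusted p = 0.0363, lost in 7 of 18 fits that left out 1 rat). The escort Scap had -0.24 (adjusted p = 0.16) and -0.16 (adjusted p = 0.313), and the liver X receptor alpha gene Nr1h3 had -0.13 (adjusted p = 0.571) and -0.16 (adjusted p = 0.393). Insig1 and Insig2, which hold SREBP in the endoplasmic reticulum, had -0.85 (adjusted p = 0.0579) and -0.35 (adjusted p = 0.426) in NASH and -0.44 (adjusted p = 0.238) and -0.64 (adjusted p = 0.08) in NASH-CH. In NASH, Insig1 was called lower by DESeq2 (adjusted p = 0.0149) and by limma-voom with sample quality weights (adjusted p = 0.0243). Mid1ip1, a paralogue of Thrsp, had -0.24 (adjusted p = 0.81) and 0.03 (adjusted p = 0.978). Control rat 6 was the lowest control for 0 of these 12 genes. Of 10 insulin signalling genes, Akt1 and Akt2 fell in NASH, -0.44 (adjusted p = 0.0291) and -0.41 (adjusted p = 0.0275), with calls lost in 7 and 8 of 18 such fits. With scaling by library size only both calls were lost, at -0.21 (adjusted p = 0.296) and -0.18 (adjusted p = 0.175). The insulin receptor substrate gene Irs2 rose in NASH-CH by 1.18 (SE 0.38, adjusted p = 0.0377, lost in 8 of 18 such fits), and Igfbp1, which insulin represses, had 0.34 (adjusted p = 0.747) and 0.51 (adjusted p = 0.534).

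Of 12 genes of malonyl-CoA removal, AMPK and other brakes, 0 passed in NASH and 1 (8.33%, beside 17.0% of all genes) in NASH-CH, the AMPK subunit gene Prkaa1, which rose by 0.40 (adjusted p = 0.0295, lost in 6 of 18 fits that left out 1 rat). Of 7 other targets of the liver X receptor, 0 passed in NASH and 2 rose in NASH-CH (28.6%, beside 17.0% of all genes called in either direction), the sterol exporter gene Abcg1, 0.57 (adjusted p = 0.0118), and Mylip, 0.58 (adjusted p = 0.0455, lost in 15 of 18 such fits).

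Sterol synthesis, which SREBP-2 drives with the same response element, was listed for comparison. Of its 17 listed genes 11 fell in NASH (64.7%, median log2 fold change -1.43) and 6 in NASH-CH (35.3%, median -0.73), and 0 rose in either model. Over all genes tested, 1.54% in NASH and 8.60% in NASH-CH were called lower. Mvd had -2.56 (adjusted p = 0.00562) and -1.81 (adjusted p = 0.00152), Pmvk -1.43 (adjusted p = 0.00449) and -1.20 (adjusted p = 0.00107), Dhcr7 -1.74 (adjusted p = 0.00597) and -1.22 (adjusted p = 0.0124), and Fdps -2.01 (adjusted p = 0.00829) and -1.21 (adjusted p = 0.0384, lost in 8 of 18 fits that left out 1 rat), in NASH and NASH-CH. Control rat 6 was the lowest control for 4 of the 17, against 10 of the 10 lipogenesis genes. Whether the 2 pathways differed in their response was not tested.

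Marker lists were checked beside these values. Hepatocyte markers (8 of 8 found) summed to 134000 to 190000 CPM in control, 95400 to 156000 in NASH and 88900 to 145000 in NASH-CH rats, with the lowest control value in rat 6, the lowest NASH value in rat 4 and the lowest NASH-CH value in rat 5. Most of the sum was Alb (means 106000, 74900 and 71000 CPM in control, NASH and NASH-CH). Apoa1 (1490, 866 and 967 CPM), Ttr (5780, 4340 and 3470 CPM) and Serpina1 (7490, 6380 and 6050 CPM) had lower means in both models. Apob (9020, 11900 and 11500 CPM) and Cps1 (3690, 3960 and 4110 CPM) had higher means in both models than in control. Tf and Hnf4a had lower means in NASH only. Among the 8 markers limma-voom called 1 lower in NASH (12.5%), 3 lower in NASH-CH (37.5%) and 0 higher in either model. The shares of all genes called lower were 1.54% and 8.60%. The part of hepatocyte markers in the lower lipogenesis values of the rats with the lowest sums was not tested. In NASH-CH rat 5, cholangiocyte markers summed to 51.5 CPM, where the other 5 rats had 6.53 to 17.5. In control, NASH and NASH-CH rats, stellate cell and myofibroblast markers (8 of 9 found) summed to 269 to 358, 213 to 296 and 269 to 416 CPM. Macrophage markers (7 of 7) summed to 255 to 463, 179 to 264 and 152 to 233. Endothelial markers (5 of 6) summed to 184 to 260, 242 to 275 and 154 to 262. These sums hide members that moved apart. In NASH-CH 3 stellate markers were called higher and 1 lower, 0 macrophage markers higher and 5 lower, and 1 endothelial marker higher and 0 lower. Control and NASH-CH means were 8.52 and 18.9 CPM for Col1a1 and 36.3 and 22.9 for Lrat. They were 11.6 and 12.7 for Cd68, 25.7 and 7.67 for Marco, 10.9 and 24.8 for Vwf, and 77.1 and 61 for Kdr. Lymphocyte markers (7 of 7) reached 38.8 CPM and neutrophil markers (4 of 4) 4.95 CPM at most, both in NASH-CH rat 5. Adipocytes also make fat, and their markers (6 of 6) summed to 6.98 to 18.9 CPM, with Adipoq, Plin1, Lep and Adrb3 each below 1 CPM in every rat and at 0 in some rats of each group. The medians of the sum were 7.68, 10.9 and 10.2 CPM in control, NASH and NASH-CH rats. The other 2 markers made up most of it, Fabp4 with means of 2.39, 4.74 and 7.06 CPM and Cfd with 5.25, 5.94 and 4.18 CPM. Fabp4, which other cells also express, rose in NASH-CH by 1.47 on the log2 scale (adjusted p = 0.0156), and its part in the lipogenesis values was not tested.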

How the data were processed

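RNA-seq libraries of rat liver, 1 per rat, were grouped by the labels into control, NASH and NASH-CH (n = 6 each). The authors trimmed adapters, aligned reads to Rnor_6.0 with STAR 2-pass and counted them per gene by RSEM on Ensembl release 95. The deposited values are RSEM expected counts for 32623 genes, without scaling for depth or length, and tool versions are not given in the sources used here. Totals ran from 19498534 to 29491947 in control and NASH rats and from 44680344 to 60117822 in NASH-CH rats, so depth cannot be told apart from that group. Small non-coding RNA genes took 10.7 to 21.5% of counts. No pair of rats in a group agreed within sampling noise.

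Expected counts were rounded, filtered with filterByExpr of edgeR 4.0.16 (12904 genes), TMM-normalized and fitted by limma-voom (limma 3.58.1, R 4.3.3) over 18 rats with a mean per group, and p-values were adjusted over all genes tested by the Benjamini-Hochberg method at 0.05. The authors state that rats shared cages, and the labels do not say which rats shared a cage or a litter. The methods were tested on simulated data. The members and gene lists were chosen with earlier results of these data known. All members were named, with up to 4 genes per list that passed (smallest adjusted p) and 15 others fixed by name, some of which are not reported here, and the 5 genes most like Fasn, Srebf1 and Mlxipl. Of the listed symbols, 4 were not found in the files. Alternatives were DESeq2 1.42.0 and edgeR's quasi-likelihood test, other normalizations and filters, the compared groups fitted alone, quality weights, the replicate number as a block, thinned NASH-CH counts, removal of small RNA genes, an exact permutation test of each member alone (6 against 6, smallest p 0.00216), and leaving out each rat. Same-numbered rats did not deviate together (mean r 0.0516 for NASH and 0.0732 for NASH-CH with control), so the fit without a block was kept. Figures were drawn with matplotlib 3.10.9.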

Additional observations from a re-analysis of the deposited data

Results flagged for a closer look

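Elovl6 in NASH-CH rat 2 stood at 1.52 CPM, while the next highest rat of that group had 0.552 CPM, a gap of 0.666 of the group's range that is above Dixon's critical value for 6 samples. That limit is passed by chance in about 1 in 20 groups, and 30 groups of values were examined, which share the same 18 rats. Its 70 reads are the most of any NASH-CH rat for a gene counted at very low depth. Control rat 6 came near the limit for Thrsp, with 243 CPM below a next lowest value of 788 CPM (gap 0.616 of the range). These gaps were taken on CPM, and those on log2 CPM, where other values can stand out, were not tested. For Pnpla3 control rat 6 had a gap of 0.335 on CPM, and a log2 CPM of -1.54 where the other controls had 4.19 to 5.75.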

How the results depend on the processing

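Of the 10 genes, limma-voom called 3 in NASH. It was 5 with edgeR's quasi-likelihood test, 6 with DESeq2 and 5 with sample quality weights. These settings also called more of all genes (5.05%, 9.53% and 11.7%, against 3.12%). The count was 2, Acly and Me1, with scaling by library size only (6.70% of all genes) and with no filter on low counts (1.28%). Without the filter Acaca had an adjusted p of 0.0707. The count ran from 1 to 6 when each rat was left out in turn. In NASH-CH 2 were called. It was 1 with at least 10 counts in every sample (which removes Elovl6 and Pnpla3 from testing), 1 with the 2 groups fitted alone and 1 with thinned NASH-CH counts, and from 1 to 3 when each rat was left out. Between NASH-CH and NASH 0 were called, 2 with DESeq2, 1 with quality weights and 0 in each fit without 1 rat. Blocking on replicate number gave 4, 2 and 0 in the 3 comparisons. With the block Elovl6 was also called in NASH (adjusted p = 0.0369), while for NASH-CH it replaced Elovl6 (adjusted p = 0.0612) by Pnpla3 (adjusted p = 0.044). Of the 6 rats, 2 correlated best with their own number in each comparison. With edgeR, Pnpla3 had an adjusted p of 0.0124 against control in NASH and of 0.0107 in NASH-CH, where limma-voom gave 0.176 and 0.12, and the cause was not tested. Scaling by library size only put the median difference over all tested genes at 0.23 (NASH) and 0.27 (NASH-CH), and the call of Acaca in NASH was then lost (-0.85, adjusted p = 0.0553), as were those of Gpam in NASH (adjusted p = 0.0561) and of Fgf21 (adjusted p = 0.068) and Fdps (adjusted p = 0.0587) in NASH-CH. The call of Irs2 was lost with edgeR (adjusted p = 0.0606).

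Directions that reversed were those of small differences, none of them called. With library size only, NASH values became 0.10 for Nr1h3, 0.06 for Mlx and 0.0003 for Mid1ip1, and NASH-CH values 0.07 for Mlxipl, 0.10 for Scap, 0.09 for Nr1h3 and 0.13 for Mlx. In NASH, edgeR and DESeq2 gave -0.01 and -0.01 for Scd2, 0.16 and 0.15 for Mid1ip1, and -0.04 and -0.04 for Igfbp1, and the replicate block gave -0.0040 for Scd2. Leaving out each rat gave -0.06 to 0.14 for Scd2, -0.54 to 0.15 for Mid1ip1, -0.05 to 0.08 for Dgat2 and -0.06 to 0.61 for Igfbp1 in NASH. In NASH-CH it gave -0.05 to 0.45 for Srebf1, lowest without control rat 6, and -0.11 to 0.25 for Mid1ip1, and against NASH -0.03 to 0.19 for Mlxipl and -0.07 to 0.67 for Thrsp. Depth limits Elovl6 most, with at most 105 reads, and Pnpla3, with 1 read in NASH rat 4.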
